A study of Mus musculus with 9 samples.

Results

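The Hippo pathway and its TEAD partners were followed through 10 genes named by hand from the pathway, namely *Yap1*, *Wwtr1*, *Tead1*, *Tead2*, *Tead4*, *Lats1*, *Lats2*, *Amot*, *Amotl2* and *Nf2*. They are 10 of the 55335 genes listed for each library. The rule that chose them uses no measured value, but it was written with earlier results of these data known. RNA was measured in pools of 8-cell embryos of ICR mice that had received siRNA in the zygote after in vitro fertilization and were then cultured in KSOM. The siRNA was nontargeting in control, directed at the mitochondrial fusion gene *Mfn1* in MFN1-KD, and directed at both histone H3.3 genes (*H3f3a* with *H3f3b*) in H3.3-KD, with 3 libraries in each of the 3 groups. The number of embryos behind a library is uncertain, since the labels give 5 to 10 per group and the methods give 10, and the labels do not say whether the libraries of a group came from separate injections or litters, so a p-value measures the spread between these pools, which may be technical. A siRNA acts in every blastomere and leaves some transcript, and a pool does not show which blastomeres a transcript came from.

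The Hippo pathway is a kinase cascade in which MST kinases activate the LATS kinases, and the LATS kinases phosphorylate the coactivators YAP and TAZ and keep them out of the nucleus. In the nucleus YAP and TAZ bind the TEAD proteins, which contact DNA. In the mouse embryo around compaction the pathway separates the first lineages: in outer, polarized cells YAP is nuclear and acts with TEAD4 on trophectoderm genes such as *Cdx2*, whereas in inner cells NF2 and the angiomotins turn LATS on.

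Promoter sequences show where the core TEAD motif, CATTCC (read as GGAATG on the other strand), lies near 4 of these genes. RefSeq (GRCm38.p6) gave windows of 250 bases before and 50 bases after the start for 8 of the 10 genes. *Tead1* and *Tead4* have no entry. The motif was in 5 of 11 windows (45.5%), which belong to *Yap1*, *Wwtr1*, *Amotl2* and *Lats2*, and the 2 overlapping *Wwtr1* windows hold the same copy, so there were 4 distinct copies in 4 of 8 genes. It was in 14.7% of all 32851 windows of this length and in 11.9% of the 10627 windows of genes tested for expression. These shares count windows, and the share of genes with the motif was not counted. The 250 bases before the start are printed on the coding strand, which reads in the direction of the transcript, with the motif in capitals. They are given for *Yap1* and *Amotl2*, which were higher in H3.3-KD, and for *Wwtr1*, the paralogue of *Yap1* that did not pass the test. *Amot*, which moved against the others, is given too.
Yap1 (chr9:8004597-8004846, minus strand): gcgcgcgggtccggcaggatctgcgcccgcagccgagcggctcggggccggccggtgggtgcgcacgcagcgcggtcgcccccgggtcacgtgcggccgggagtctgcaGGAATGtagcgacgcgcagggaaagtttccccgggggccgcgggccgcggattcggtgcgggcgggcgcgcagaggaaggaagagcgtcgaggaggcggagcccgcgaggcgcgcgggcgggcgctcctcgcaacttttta
Amotl2 (chr9:102717554-102717803, plus strand): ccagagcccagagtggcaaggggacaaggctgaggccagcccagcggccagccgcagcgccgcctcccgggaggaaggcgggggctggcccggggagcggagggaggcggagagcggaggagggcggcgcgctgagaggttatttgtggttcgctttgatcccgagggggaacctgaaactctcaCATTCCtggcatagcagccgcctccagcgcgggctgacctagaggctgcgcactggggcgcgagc
Wwtr1 (chr3:57575911-57576160, minus strand): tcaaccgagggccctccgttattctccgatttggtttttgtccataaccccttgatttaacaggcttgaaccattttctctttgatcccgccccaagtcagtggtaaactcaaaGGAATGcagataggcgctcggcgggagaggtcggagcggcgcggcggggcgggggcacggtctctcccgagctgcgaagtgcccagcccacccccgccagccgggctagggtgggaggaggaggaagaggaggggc
Amot (chrX:145487640-145487889, minus strand): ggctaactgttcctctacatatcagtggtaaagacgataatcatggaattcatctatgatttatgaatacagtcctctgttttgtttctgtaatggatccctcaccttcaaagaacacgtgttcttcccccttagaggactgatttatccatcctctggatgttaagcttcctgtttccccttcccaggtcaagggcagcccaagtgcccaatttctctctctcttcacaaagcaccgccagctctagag
The first base of the motif lies 141 bases before the start of *Yap1*, 65 bases before that of *Amotl2* and 136 bases before the upstream start of *Wwtr1* (170 before the other). The *Lats2* copy lies 4 bases after the start and so outside the bases before it. The start is that of the gene in GENCODE for *Yap1* and *Wwtr1*, but lies 1132 bases inside the gene for *Amotl2* and 17542 bases inside it for *Amot*. For the *Lats2* window with the motif it lies 12265 bases inside the gene. A match of these letters is a description of the window and not a measured binding site.

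Expression values are FPKM, in which fragment numbers are divided by gene length and by library size, so levels can be set beside each other between genes. Read counts were not used, and the sequencing depth is unknown. The number of genes above 0 FPKM was 21643 to 22507 in control, 23655 to 24820 in H3.3-KD and 15577 to 20842 in MFN1-KD, where replicate 3 was lowest. The siRNA targets were low in the groups that received the siRNA. *Mfn1* was at 51.57, 22.55 and 23.77 FPKM in control and 9.54, 4.40 and 1.15 FPKM in MFN1-KD (log2 fold change -2.66 ± 0.58 SE, adjusted p = 0.0431). *H3f3a* had 7.72% and *H3f3b* 8.24% of its control mean in H3.3-KD. The mean of *Mfn1* in H3.3-KD was 235% of control, with overlap (log2 fold change 1.21, adjusted p = 0.143 in limma). In MFN1-KD *H3f3a* had 69.1% and *H3f3b* 93.3% of its control mean. Every MFN1-KD library lay below control for both genes, but neither passed in limma (adjusted p = 0.153 and 0.821). Among embryo markers *Dppa3* and *Dppa5a* had at least 4084.67 FPKM in every library, and both fell in H3.3-KD in limma (log2 fold changes of -0.88 and -1.27, adjusted p = 0.0025 and 0.00141). *Pou5f1*, which encodes the pluripotency factor OCT4, was at only 5.10 to 8.90 FPKM in control. *Pou5f1* and *Tfap2c* rose in H3.3-KD (4.65 and 1.36, adjusted p = 0.000902 and 0.00465). *Zfp42*, *Padi6*, *Tdgf1* and *Nlrp5* did not pass the test there. The summed FPKM of the 8 embryo markers was 21103 to 28050 in control, 28820 to 35001 in MFN1-KD and 10499 to 14181 in H3.3-KD, and *Dppa3* and *Dppa5a* carried it. In MFN1-KD their means were at 145% and 97.7% of control. The other markers were at 23.2% (*Padi6*), 30.9% (*Pou5f1*), 51.0% (*Zfp42*), 85.0% (*Tdgf1*), 113% (*Nlrp5*) and 179% (*Tfap2c*) of control in MFN1-KD. Of the 12 cumulus and granulosa cell markers, *Has2*, *Ptx3*, *Inhba* and *Cyp19a1* had at most 0.65 FPKM in any library. The summed FPKM of that list was 44.1 to 64.2 in control, 57.7 to 78.2 in MFN1-KD and 150.1 to 193.9 in H3.3-KD, and *Nr5a2* and *Amhr2* carried it. Both of these genes were already present in every control library, *Nr5a2* at 22.91 to 33.95 FPKM and *Amhr2* at 16.05 to 29.79 FPKM. Both rose in H3.3-KD in limma (log2 fold changes of 2.06 and 1.11, adjusted p = 0.000349 and 0.0327). Whether the sum reflects other cells or RNA of the embryos was not tested. The 5 blood markers summed to 89.4 to 139.7 FPKM in control, 22.3 to 89.5 in MFN1-KD and 11.6 to 18.5 in H3.3-KD, and the 5 sperm markers stayed at or below 2.93 FPKM.

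Each gene was tested with limma on log2(FPKM + 1) in 1 model of all 9 libraries, and p-values were adjusted over the 13011 genes that averaged 1 FPKM or more. All 10 Hippo genes passed that filter. A fold change on this scale understates the change of genes near 1 FPKM. Over all genes tested the median change was -0.08 (MFN1-KD) and 0.26 (H3.3-KD) on the log2 scale, and after median-ratio scaling of the libraries it was -0.05 and 0.00.

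In H3.3-KD 4 of the 10 genes rose and 1 fell at an adjusted p under 0.05. *Yap1*, *Nf2*, *Amotl2* and *Tead4* rose and *Amot* fell, whereas *Wwtr1*, *Tead2*, *Lats1* and *Lats2* had log2 fold changes between -0.20 and 0.27. Of all genes tested, 21.8% rose and 9.12% fell at this threshold. The study called genes changed over 2-fold with a p under 0.05 in DESeq2. Here the same cut-offs, with an unadjusted p, were put on the limma values and are named the study threshold. The calls are therefore not those of the study. At this threshold 5 of the 10 genes were higher, with *Tead1* added, and 1 was lower, against 23.9% and 9.39% of all genes. The 3 H3.3-KD libraries all lay above the 3 control libraries for 5 of the 10 genes and all below for 1, against 34.5% and 18.9% of all genes. The median log2 fold change of the 10 genes was 0.68 in H3.3-KD. In pooled embryos a change in the number of cells that express a gene and a change in RNA per cell cannot be told apart.

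In MFN1-KD none of the 10 genes passed an adjusted p of 0.05 in limma, and 2 had an unadjusted p under 0.05. Of all genes tested, 1.15% rose and 2.2% fell at the adjusted p, and 23.2% had an unadjusted p under 0.05. The pair was *Amot* and *Tead1*, both more than 2-fold higher, so that 2 of 10 genes were higher and 0 lower at the study threshold, against 5.02% and 9.05% of all genes. For the same pair the MFN1-KD libraries all lay above the control libraries, which held for 11.4% of all genes, and none of the 10 genes had all MFN1-KD libraries below control, which held for 16.8%. The median log2 fold change of the 10 genes was 0.36 in MFN1-KD. Both comparisons use the same control libraries.

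**Figure D1:**
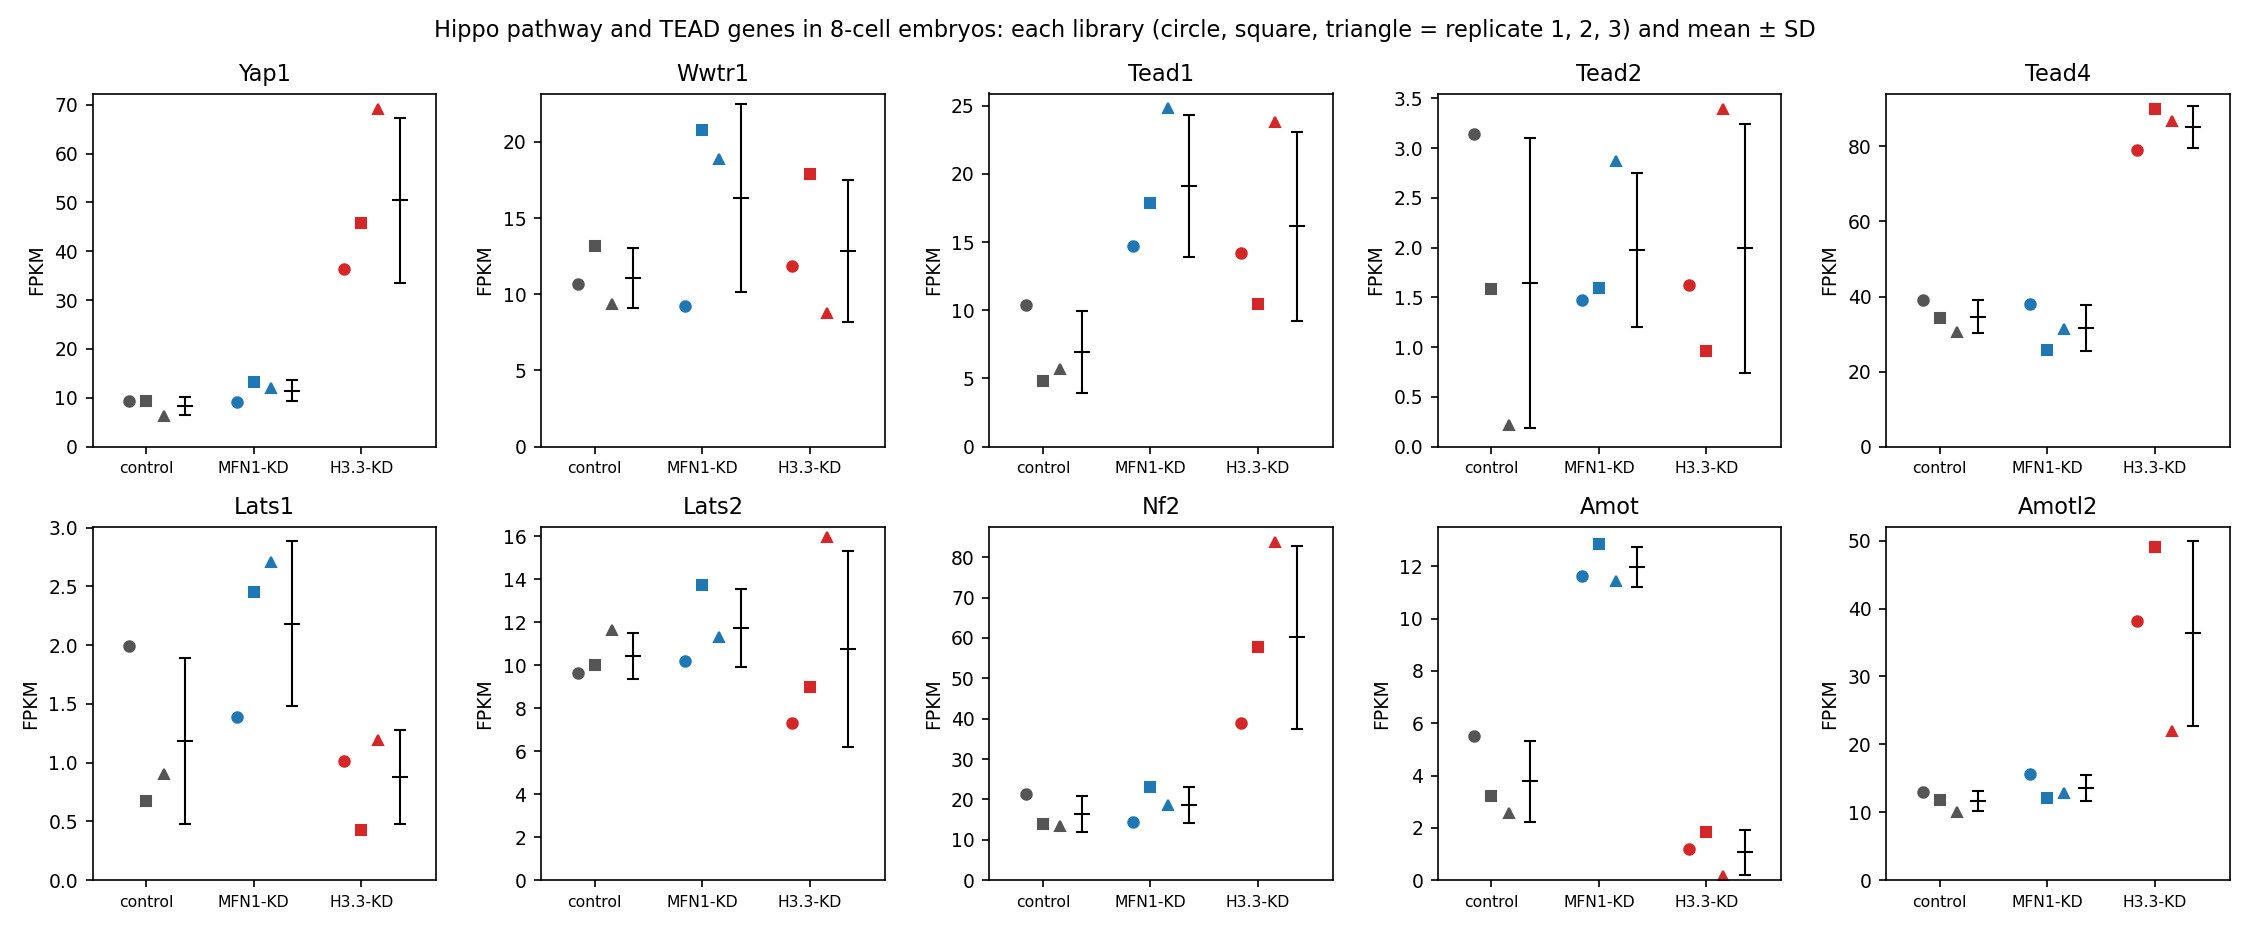
FPKM of the 10 genes in each library (circle, square and triangle for replicates 1, 2 and 3 of control in grey, MFN1-KD in blue and H3.3-KD in red), with the mean and SD beside the points; each vertical axis starts at 0 and has its own scale. The H3.3-KD points of *Yap1*, *Tead4*, *Amotl2* and *Nf2* sit above all other points, and those of *Amot* sit at 0.15 to 1.85 FPKM, below all other points.

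In control embryos *Tead4* had the highest level at 34.6 ± 4.36 FPKM (SD, n = 3), and *Nf2* followed at 16.3 ± 4.49 FPKM. The ranges of these 2 genes did not overlap with each other or with those below. *Amotl2*, *Wwtr1* and *Lats2* came next with means of 10.4 to 11.6 FPKM and overlapping ranges. *Yap1* and *Tead1* had means of 8.36 and 6.96 FPKM, *Amot* 3.78 FPKM, and *Tead2* and *Lats1* 1.65 and 1.19 FPKM, each overlapping its neighbour. In H3.3-KD the order was *Tead4*, *Nf2*, *Yap1*, *Amotl2*, *Tead1*, *Wwtr1* and *Lats2*, with overlap between neighbours throughout, and *Tead2*, *Amot* and *Lats1* lay below these without overlap. In MFN1-KD *Tead4* stayed above all the others, 7 genes from *Tead1* at 19.1 FPKM to *Yap1* at 11.5 FPKM overlapped with their neighbours, and *Lats1* and *Tead2* lay below them.

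Of the coactivators, *Yap1* rose in H3.3-KD and *Wwtr1* did not pass the test in either knockdown. *Yap1* (chromosome 9, 7931999 to 8004596, minus strand, GRCm38) encodes YAP. It was at 9.37, 9.43 and 6.29 FPKM in control, 9.06, 13.29 and 12.02 FPKM in MFN1-KD and 36.31, 45.88 and 69.16 FPKM in H3.3-KD. The H3.3-KD libraries were all far above the rest, and the MFN1-KD libraries overlapped with control. The H3.3-KD mean was 6.03 times the control mean, with a log2 fold change of 2.43 ± 0.32 (SE) and an adjusted p of 0.000488. This call held in 16 of 16 alternatives, with log2 fold changes of 2.02 to 2.63. In MFN1-KD the log2 fold change was 0.42 (95% confidence interval -0.28 to 1.11, adjusted p = 0.462).

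*Wwtr1* (chromosome 3, 57455649 to 57575910, minus strand) encodes TAZ, the paralogue of YAP. Its levels were 10.70, 13.20 and 9.34 FPKM in control, 9.25, 20.77 and 18.86 FPKM in MFN1-KD and 11.87, 17.88 and 8.75 FPKM in H3.3-KD. All groups overlapped, although MFN1-KD replicates 2 and 3 were the highest of the 9 libraries. The log2 fold change was 0.46 in MFN1-KD (interval -0.37 to 1.28) and 0.15 in H3.3-KD (interval -0.67 to 0.98), and the latter was -0.15 after median-ratio scaling. Within each library *Yap1* made up 42.9 ± 3.38% (SD) of the summed FPKM of *Yap1* and *Wwtr1* in control, 42.5 ± 6.07% in MFN1-KD, but 78.7 ± 8.89% in H3.3-KD. Such a share does not depend on how a library is scaled, but no share was corrected for GC content. The H3.3-KD shares, 72.0% to 88.8%, did not overlap with the control shares, 40.2% to 46.7% (exact permutation test, two-sided, p = 0.10, which is the lowest value 3 against 3 libraries can reach, and 0.2 after adjustment over 8 tests).

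Of the TEAD factors, *Tead4* rose in H3.3-KD, *Tead1* passed the study threshold in both knockdowns and *Tead2* passed none. *Tead4* (chromosome 6, 128224288 to 128300823, minus strand) encodes the TEAD needed for the trophectoderm. It was at 39.12, 34.25 and 30.42 FPKM in control, 38.09, 25.78 and 31.24 FPKM in MFN1-KD and 79.09, 89.91 and 86.76 FPKM in H3.3-KD. The H3.3-KD libraries formed a tight group at 2.46 times the control mean, with no overlap. In H3.3-KD the difference from control was 1.28 ± 0.23 on the log2 scale (adjusted p = 0.00262), and in MFN1-KD it was -0.13 (interval -0.65 to 0.38). The rise held in 15 of 16 alternatives. The exception was a correction of every library for its dependence on GC content and transcript length (the GC and length trend), after which it was -0.0028 (adjusted p = 0.995).

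*Tead1* (chromosome 7, 112679318 to 112906807, plus strand) encodes a broadly expressed TEAD. It was at 10.41, 4.80 and 5.67 FPKM in control, 14.71, 17.84 and 24.85 FPKM in MFN1-KD and 14.18, 10.43 and 23.84 FPKM in H3.3-KD. Every knockdown library lay above the control libraries, but H3.3-KD replicate 2 only just exceeded control replicate 1. The log2 fold change was 1.37 ± 0.39 in MFN1-KD (adjusted p = 0.0773) and 1.10 ± 0.39 in H3.3-KD (adjusted p = 0.0534). The adjusted p stayed over 0.05 in 16 of 16 alternatives in MFN1-KD and was under 0.05 in 4 of 16 in H3.3-KD, namely without control replicate 1 (0.0316), H3.3-KD replicate 2 (0.0471) or MFN1-KD replicate 3 (0.0378) and with only the 6 libraries compared (0.0489). The study threshold held for *Tead1* in all 16 alternatives in MFN1-KD. In H3.3-KD *Tead1* missed it after median-ratio (0.79) and upper-quartile scaling (0.70), with the GC and length trend removed (0.86), and with control replicate 2 (0.90), control replicate 3 (1.00) or H3.3-KD replicate 3 (0.79) left out. The test of the difference between the knockdowns gave -0.28 (interval -1.13 to 0.58, adjusted p = 0.603).

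*Tead2* (chromosome 7, 45215753 to 45233644, plus strand) encodes another TEAD and was near the filter. It was at 3.14, 1.58 and 0.22 FPKM in control, 1.47, 1.59 and 2.87 FPKM in MFN1-KD and 1.63, 0.96 and 3.39 FPKM in H3.3-KD. The groups overlapped, and replicates of a group differed more than the groups did. Its log2 fold changes of 0.31 and 0.27 did not pass the test, with intervals of -0.78 to 1.39 in MFN1-KD and -0.82 to 1.35 in H3.3-KD. *Tead4* made up 80.6 ± 5.62% (SD) of the summed FPKM of *Tead1*, *Tead2*, *Tead3* and *Tead4* in control, but 59.9 ± 8.70% in MFN1-KD, with 82.4 ± 6.36% in H3.3-KD. The MFN1-KD shares, 53.0% to 69.6%, lay below all control shares, 74.1% to 84.0% (exact permutation p = 0.10, adjusted 0.2), and the H3.3-KD shares overlapped with control. The summed TEAD level was 43.3 ± 8.51 FPKM in control, 53.0 ± 7.03 FPKM in MFN1-KD and 103.9 ± 9.5 FPKM in H3.3-KD.

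The LATS kinases, which phosphorylate YAP and TAZ, did not pass the test in either knockdown. *Lats2* (chromosome 14, 57689662 to 57758388, minus strand) was at 9.66, 10.02 and 11.64 FPKM in control, 10.18, 13.73 and 11.33 FPKM in MFN1-KD and 7.31, 9.01 and 15.95 FPKM in H3.3-KD. The H3.3-KD libraries held both the lowest values and the highest value. Its log2 fold change was 0.15 in MFN1-KD (interval -0.56 to 0.87) and -0.02 in H3.3-KD (interval -0.74 to 0.69). *Lats1* (chromosome 10, 7681214 to 7716460, plus strand) was at 1.99, 0.67 and 0.90 FPKM in control, 1.39, 2.45 and 2.71 FPKM in MFN1-KD and 1.01, 0.43 and 1.19 FPKM in H3.3-KD. Each knockdown overlapped with control, whereas every MFN1-KD library lay above every H3.3-KD library. The direct test of that difference gave -0.76 in H3.3-KD against MFN1-KD (interval -1.59 to 0.07, adjusted p = 0.131). *Lats1* made up 10.2 ± 6.0% (SD) of the LATS transcripts in control, 15.5 ± 3.66% in MFN1-KD, with 7.88 ± 3.88% in H3.3-KD (exact permutation p = 0.3 and 0.6).

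*Nf2* (chromosome 11, 4765845 to 4849536, minus strand), which encodes the membrane-linked activator of LATS called merlin, rose in H3.3-KD. It was at 21.47, 13.92 and 13.50 FPKM in control, 14.34, 23.05 and 18.50 FPKM in MFN1-KD and 38.89, 57.69 and 83.89 FPKM in H3.3-KD. The H3.3-KD libraries were spread widely, yet the lowest of them was above all others. The H3.3-KD mean was 3.69 times that of control, a rise of 1.78 ± 0.34 on the log2 scale (adjusted p = 0.00324), and the MFN1-KD change was 0.19 (interval -0.56 to 0.93). The rise held in 16 of 16 alternatives, but it was 0.98 (adjusted p = 0.0323) with the GC and length trend removed.

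The angiomotins, which hold NF2 and LATS together at junctions and bind YAP, went opposite ways in H3.3-KD. *Amotl2* (chromosome 9, 102716672 to 102733418, plus strand) was at 13.02, 11.79 and 10.04 FPKM in control, 15.68, 12.07 and 12.84 FPKM in MFN1-KD and 38.16, 49.03 and 21.97 FPKM in H3.3-KD. All H3.3-KD libraries were higher than the others, replicate 3 least. Their log2 fold change was 1.50 ± 0.32 (adjusted p = 0.00579), against 0.20 in MFN1-KD (interval -0.50 to 0.91). With the GC and length trend removed the rise in H3.3-KD was 0.41 (adjusted p = 0.389).

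*Amot* (X chromosome, 145446425 to 145505181, minus strand) encodes angiomotin. It was at 5.52, 3.23 and 2.58 FPKM in control, 11.63, 12.87 and 11.43 FPKM in MFN1-KD and 1.18, 1.85 and 0.15 FPKM in H3.3-KD. The 3 groups did not overlap with each other, with MFN1-KD highest and H3.3-KD lowest. In H3.3-KD the mean was 28.1% of control, and *Amot* fell by 1.26 ± 0.40 on the log2 scale (adjusted p = 0.0354). In 10 of 16 alternatives this call held. It was lost without any 1 of the control libraries (adjusted p = 0.117, 0.0835 and 0.0578 without replicates 1, 2 and 3), without H3.3-KD replicate 1 (0.0611) or 3 (0.111, log2 fold change -0.89) and with no filter (0.0835), and the log2 fold change stayed negative throughout, from -2.11 to -0.89. In MFN1-KD the mean was 3.17 times that of control, a log2 difference of 1.49 ± 0.40 (adjusted p = 0.0702). The adjusted p in MFN1-KD ranged from 0.0443 to 0.246 over the alternatives and was under 0.05 after median-ratio and upper-quartile scaling.

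*Amot* made up 23.8 ± 5.15% (SD) of the summed FPKM of *Amot*, *Amotl1* and *Amotl2* in control, 46.9 ± 4.74% in MFN1-KD, but only 2.35 ± 1.49% in H3.3-KD. Neither knockdown overlapped with control (exact permutation p = 0.10 for each, adjusted 0.2). *Amotl1*, the other angiomotin gene, was at or under 0.30 FPKM in control and MFN1-KD and at 1.66, 1.92 and 0.25 FPKM in H3.3-KD, and was below the filter. Because *Amot* is X-linked, the sex-linked genes are given beside it. *Xist*, the RNA of the inactive X, was at 23.72, 5.54 and 3.61 FPKM in control, 42.57, 8.79 and 2.58 FPKM in MFN1-KD and 2.12, 2.63 and 0.07 FPKM in H3.3-KD. The Y-linked *Eif2s3y* was at 23.00, 38.88 and 25.49 FPKM in control, 34.18, 34.81 and 0.03 FPKM in MFN1-KD and 0, 10.41 and 7.01 FPKM in H3.3-KD. The other Y-linked genes, *Ddx3y*, *Uty* and *Kdm5d*, were also at or under 0.03 FPKM in MFN1-KD replicate 3 and at or under 0.01 FPKM in H3.3-KD replicate 1. *Amot* lay between 11.43 and 12.87 FPKM in the MFN1-KD pools with and without Y-linked RNA. In H3.3-KD it was at 1.18 FPKM in the pool without Y-linked RNA and at 1.85 and 0.15 FPKM in the others. *Xist* and *Eif2s3y* were both lower in every H3.3-KD library than in any control library. The 482 X-linked genes tested had a median log2 fold change of -0.14 in H3.3-KD, against 0.26 for all genes, and -0.07 in MFN1-KD, against -0.08. Whether the sex of the embryos had a part in the *Amot* values was not tested.

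**Figure D2:**
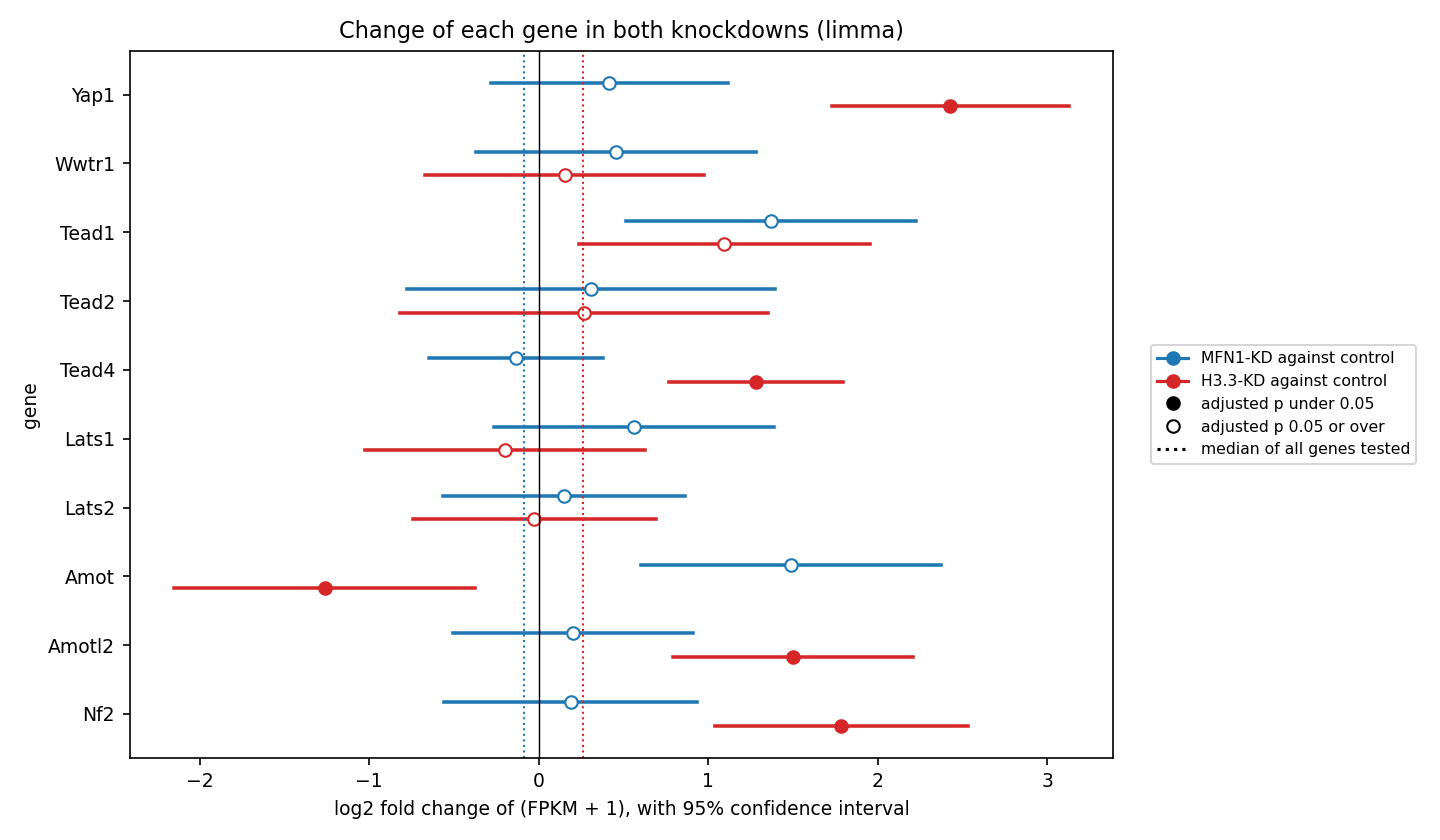
Log2 fold change of log2(FPKM + 1) with its 95% confidence interval for each gene in MFN1-KD (blue) and H3.3-KD (red) against the same control libraries; filled points have an adjusted p under 0.05 and dotted lines mark the median of all genes tested. The interval of *Amot* lies above 0 in MFN1-KD and below 0 in H3.3-KD, and 5 red points and no blue point are filled.

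**Figure D3:**
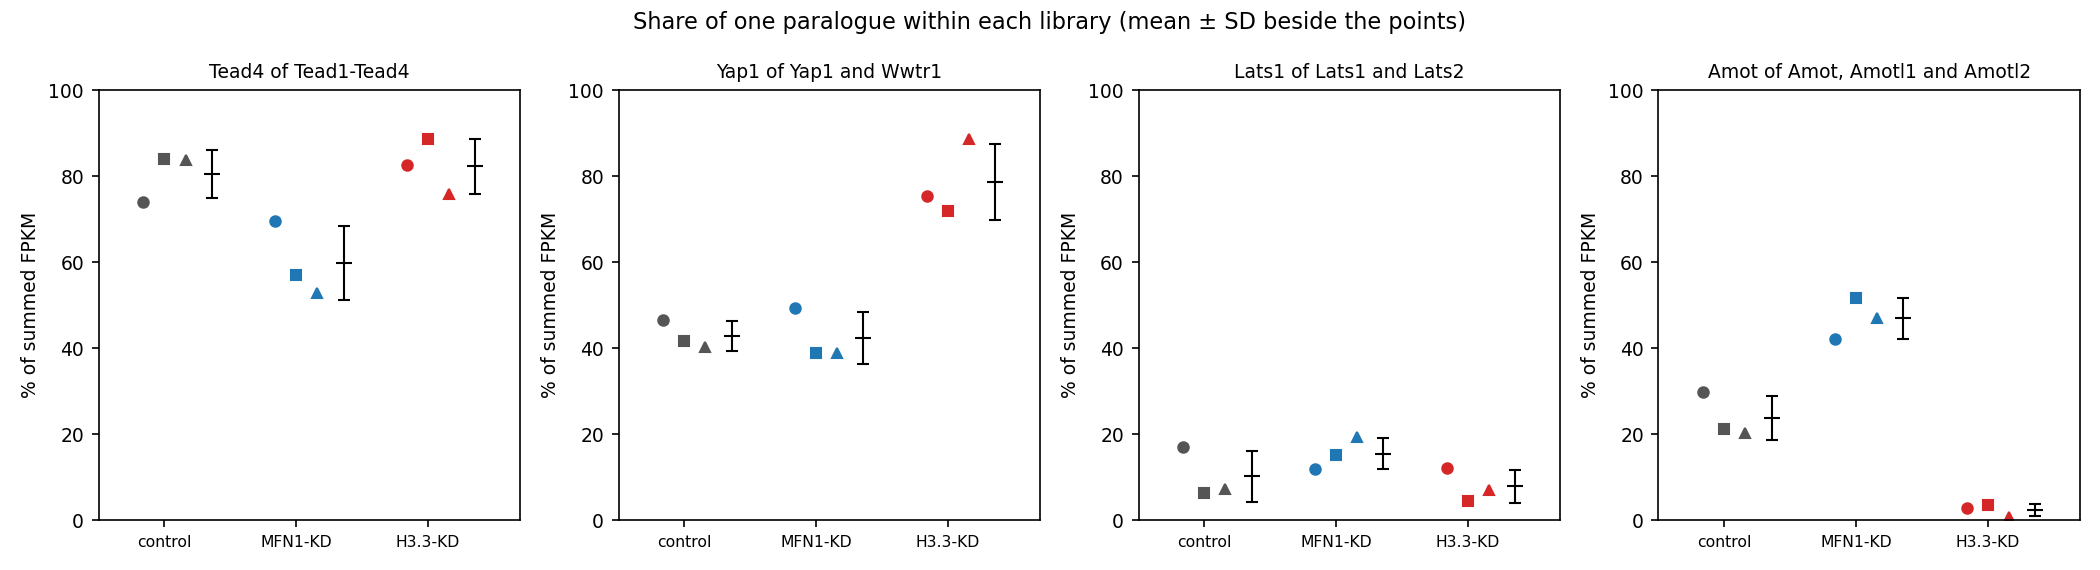
Share of 1 paralogue in the summed FPKM of its family in each library (circle, square and triangle for replicates 1, 2 and 3), with mean and SD, on axes from 0 to 100%. In MFN1-KD *Tead4* is low and *Amot* high in share, and in H3.3-KD *Yap1* is high and *Amot* near 0.

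The direct test of H3.3-KD against MFN1-KD, in which control values do not enter the difference, called 5 of the 10 genes. *Yap1* (2.01), *Nf2* (1.60), *Tead4* (1.41) and *Amotl2* (1.30) were higher in H3.3-KD and *Amot* (-2.75) was lower, with adjusted p-values of 0.000569 to 0.00926. Of all genes tested, 27.6% were higher and 11% lower in this comparison. The difference in *Amot* was the largest of the 10 in size, and it held in 16 of 16 alternatives, from -3.82 to -2.38, as did that of *Yap1*. With the GC and length trend removed, which left 13.9% of all genes higher and 14.3% lower, *Nf2* (0.75, adjusted p = 0.0762), *Amotl2* (0.17) and *Tead4* (-0.03) did not pass, and *Tead2* (-1.43, adjusted p = 0.0456) was lower in H3.3-KD. The difference in *Amotl2* also missed the threshold after upper-quartile scaling (adjusted p = 0.0568).

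GC content moved with the change of all genes in H3.3-KD, and the Hippo genes differ in it. Genes were put into 10 equal classes by the GC content of their longest transcript, and the class medians ran from -0.29 (lowest GC) to 1.10 (highest GC) for H3.3-KD, and for MFN1-KD they ran from 0.24 to -0.24. *Tead4* has a GC content of 58.1% and its H3.3-KD change of 1.28 lay beside a median of 1.10 for its class. *Amotl2*, at 56.7%, lay at 1.50 beside 0.85, and *Nf2*, at 53.5%, at 1.78 beside 0.64. *Yap1*, at 45.2%, lay at 2.43 beside -0.02, and *Amot*, at 46.7%, at -1.26 beside 0.18. *Tead2* has nearly the GC content of *Tead4*, 57.9%, and its change of 0.27 was below the median of the same class. With the trend removed, *Yap1* (2.18, adjusted p = 0.00085) and *Nf2* remained called as higher and *Amot* (-1.55, adjusted p = 0.0148) as lower in H3.3-KD, and *Tead4* and *Amotl2* did not. Paralogues also differ in GC content, with 58.1% for *Tead4* and 46.5% for *Tead1*, and 56.7% for *Amotl2* and 46.7% for *Amot*. *Yap1* and *Wwtr1* were closer, at 45.2% and 43.9%. No paralogue share was computed with the trend removed. The part of GC content in these values was not tested further.

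**Figure D4:**
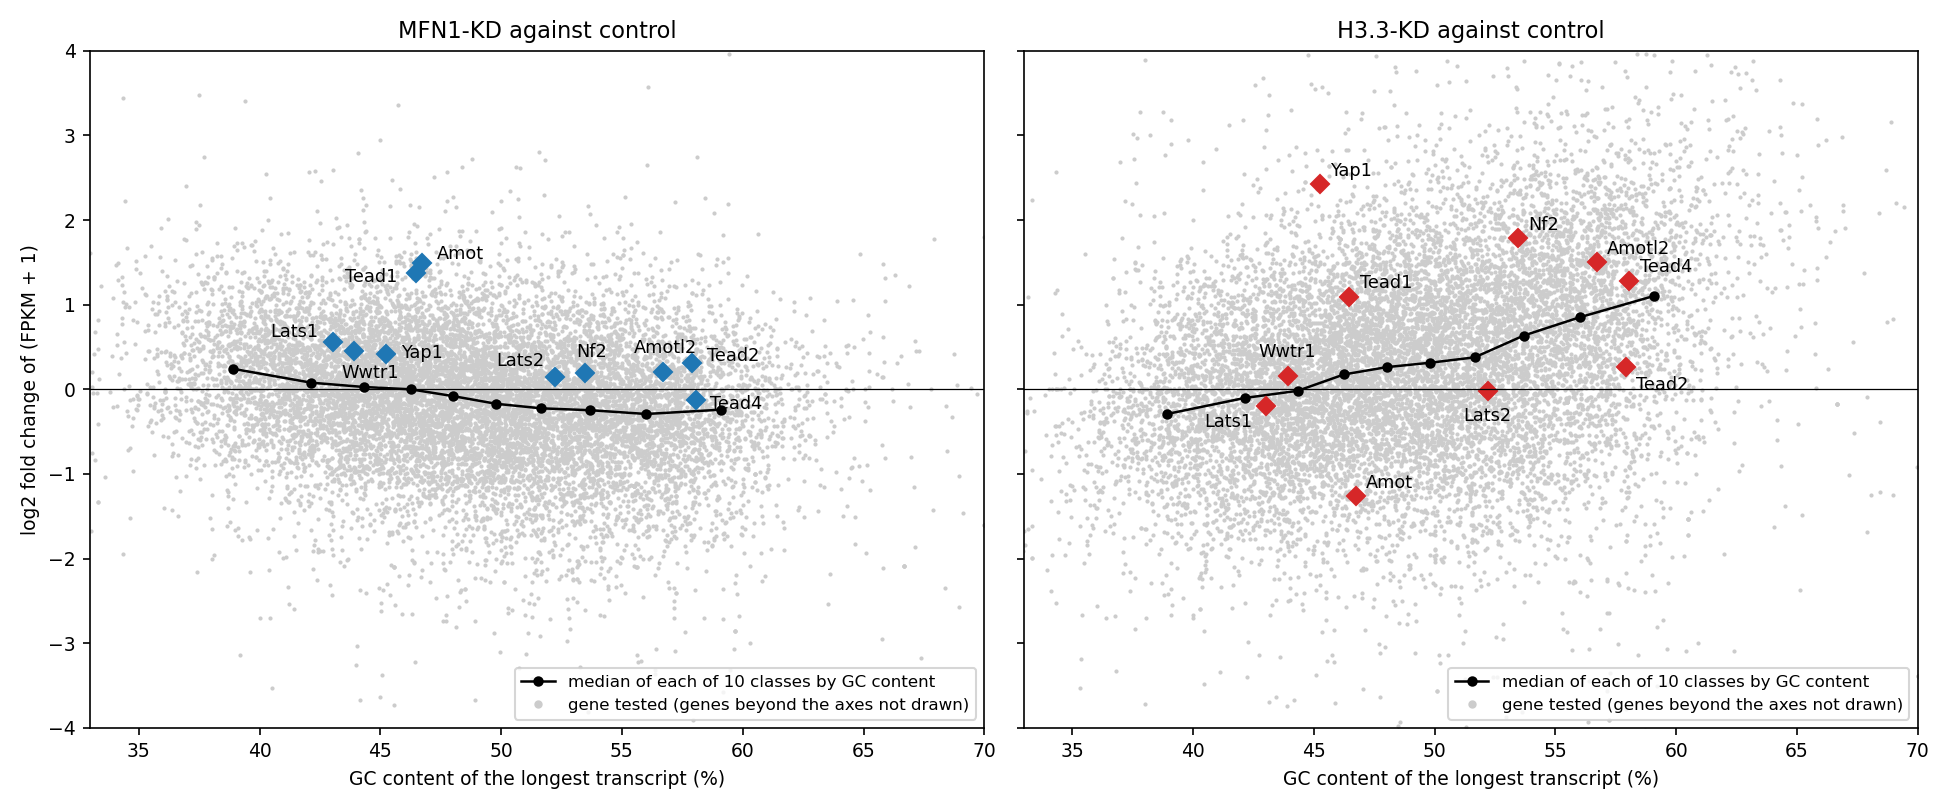
Log2 fold change against GC content of the longest transcript (%) for every gene tested (grey), the 10 Hippo genes (diamonds) and the median of each of the 10 GC classes (black line), in MFN1-KD and H3.3-KD; genes beyond the axes are not drawn. *Yap1* lies above the line and *Amot* below it in H3.3-KD, *Tead4* lies close to it, and *Amot* and *Tead1* lie above it in MFN1-KD.

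Other genes of the pathway and of the lineages it acts on were described by lists written by hand. Their counts stand beside the same shares of all genes tested, of which 21.8% rose and 9.12% fell in H3.3-KD, 11.6% rose and 12.2% fell there with the GC and length trend removed, and 1.15% rose and 2.2% fell in MFN1-KD (0.885% and 1.47% with the trend removed). An unadjusted p under 0.05 was reached by 42.1% of all genes in H3.3-KD and by 23.2% in MFN1-KD. A gene that averaged 1 FPKM only through its H3.3-KD libraries had to be higher there than the mean of the other libraries, which applies to 1094 of all genes tested, and counts are also given without such genes; of the 11654 genes that reached the filter without leaning on 1 of the compared groups, 20.1% rose and 9.76% fell. Of 33 other Hippo genes tested (kinases, scaffolds, inhibitors and their partners), 9 rose and 0 fell in H3.3-KD at an adjusted p under 0.05, with a median log2 fold change of 0.44 (0.26 for all genes), and 13 had an unadjusted p under 0.05. Without *Fat1*, *Limd1* and *Wtip*, which reached the filter only through H3.3-KD, 8 of 30 rose. *Csnk1e* and *Csnk1d*, casein kinases that mark YAP for degradation after LATS has acted, had the largest rises. *Csnk1e* was at 120.6, 109.0 and 104.3 FPKM in control and 817.9, 892.1 and 848.5 FPKM in H3.3-KD (log2 fold change 2.93, adjusted p = 4.36e-05). *Csnk1d* rose by 2.11 and *Strn4*, a subunit of the phosphatase complex that opposes the MST kinases, by 2.00 on the same scale. After the GC and length trend was removed 3 of the 33 genes rose and 2 fell, and *Strn4* was not among those called (adjusted p = 0.0566). In MFN1-KD limma called 0 of the 33 genes and 9 had an unadjusted p under 0.05. The smallest p was that of *Map4k3*, a kinase upstream of LATS, which was at 9.24, 4.79 and 5.94 FPKM in control and 17.40, 22.00 and 13.22 FPKM in MFN1-KD (log2 fold change 1.29, adjusted p = 0.0573, range 0.0327 to 0.222 over the alternatives).

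Among 15 YAP and TEAD target genes tested, 5 rose and 1 fell in H3.3-KD, with a median of 1.11 against 0.26 for all genes, and 4 rose and 1 fell after the GC and length trend was removed. Without *Cdx2*, which reached the filter only through H3.3-KD, 4 of 14 rose and the median was 1.02. It was 0.18 for all genes that did not lean on 1 compared group. *Ccn1* and *Ccn2*, matricellular proteins that are standard readouts of YAP, were the largest rises. *Ccn1* was at 11.48, 10.11 and 7.04 FPKM in control, 2.43, 4.74 and 3.57 FPKM in MFN1-KD and 80.18, 56.56 and 60.01 FPKM in H3.3-KD. *Ccn2* was at 3.87, 2.85 and 1.47 FPKM in control, 6.10, 5.65 and 8.30 FPKM in MFN1-KD and 28.03, 40.15 and 14.47 FPKM in H3.3-KD. Both were higher in every H3.3-KD library than in any other, whereas in MFN1-KD all *Ccn1* values lay below and all *Ccn2* values above control. In H3.3-KD the log2 fold changes were 2.67 for *Ccn1* (adjusted p = 0.000285) and 2.88 for *Ccn2* (adjusted p = 0.000756). *Igfbp3*, a secreted binder of insulin-like growth factors, rose by 2.02, and *Birc5*, the mitotic gene survivin, fell by 0.85 on the log2 scale. In MFN1-KD limma called 0 of the 15 and 5 had an unadjusted p under 0.05. *Birc5* had the smallest p, at 448.1, 530.6 and 604.9 FPKM in control and 291.1, 340.4 and 270.2 FPKM in MFN1-KD (log2 fold change -0.81, adjusted p = 0.0553).

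Of 12 trophectoderm genes tested, 6 rose and 1 fell in H3.3-KD, and 3 rose and 2 fell with the GC and length trend removed. Without *Cdx2*, 5 of 11 rose and the median log2 fold change was 0.10, against 0.69 with it. The median of all genes was 0.18 without those that leaned on 1 compared group, and 0.26 with them. *Hand1*, a transcription factor of trophoblast giant cells, was at 18.55, 16.18 and 9.39 FPKM in control, 20.25, 27.15 and 15.21 FPKM in MFN1-KD and 151.8, 223.9 and 98.9 FPKM in H3.3-KD (log2 fold change 3.31, adjusted p = 0.000229). *Aqp3*, a water channel, rose by 2.48 (adjusted p = 0.00937), and *Tspan8*, a membrane tetraspanin, fell by 2.32 on the log2 scale (adjusted p = 0.00158). *Cdx2*, the trophectoderm factor that YAP and TEAD4 activate and a member of both lists, was at 0.09, 0.08 and 0.06 FPKM in control, 0, 0.06 and 0 FPKM in MFN1-KD and 2.21, 6.24 and 0.57 FPKM in H3.3-KD. It was near 0 outside H3.3-KD and was tested only because of its level there, so its call (1.62, adjusted p = 0.0426, and 0.0629 with no filter) is not an even test. The call held in 5 of 16 alternatives, with adjusted p-values of up to 0.503. It was lost without any 1 of the control libraries, without H3.3-KD replicate 1 or 2 and without MFN1-KD replicate 1 (0.0502 to 0.142). In MFN1-KD limma called 0 of the 12 genes and 2 had an unadjusted p under 0.05, of which *Krt18*, a keratin of the trophectoderm, had the smaller (10.80, 6.51 and 8.26 FPKM in control and 3.07, 0.90 and 0.12 FPKM in MFN1-KD, log2 fold change -2.19, adjusted p = 0.059, and 0.0451 without MFN1-KD replicate 1).

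Of 13 inner cell mass genes tested, 5 rose and 2 fell in H3.3-KD, and 2 rose and 2 fell with the GC and length trend removed. *Pou5f1* was at 7.73, 8.90 and 5.10 FPKM in control, 3.68, 2.74 and 0.30 FPKM in MFN1-KD and 330.3, 392.2 and 63.1 FPKM in H3.3-KD (log2 fold change 4.65, adjusted p = 0.000902). *Carm1*, an arginine methyltransferase, rose by 2.17 (adjusted p = 0.103 with the GC and length trend removed) and *Esrrb*, an orphan nuclear receptor, by 1.58. The *Esrrb* call held in 9 of 16 alternatives and was lost when replicate 2 or 3 of control, or 1 or 2 of H3.3-KD, was left out (0.0566 to 0.0993). It was also lost with no filter (0.0655), after upper-quartile scaling (0.0555) and with the GC and length trend removed, where the log2 fold change of *Esrrb* was 0.63 (adjusted p = 0.25). *Carm1* shares exon sequence with *Yipf2* on the other strand, and counting by strand is not stated. The pluripotency genes *Prdm14* (-1.56, adjusted p = 0.00824) and *Sall4* (-1.31, adjusted p = 0.00273) fell. In MFN1-KD 1 of the 13 genes was called, *Sox21* (1.42, adjusted p = 0.05 after rounding). This call held in 3 of 16 alternatives and was lost without any 1 library other than MFN1-KD replicate 1 (0.0547 to 0.199). *Sox21* was at 8.28, 4.89 and 5.48 FPKM in control and 13.06, 17.79 and 24.73 FPKM in MFN1-KD. Its exons overlap those of *Gm4675* on the opposite strand, which averaged 52.1 FPKM over all libraries. Whether reads of *Gm4675* entered the *Sox21* values was not tested.

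Of 26 polarity and junction genes tested, 6 rose and 1 fell in H3.3-KD, where 4 rose and 2 fell with the GC and length trend removed, and 0 rose and 1 fell in MFN1-KD. The share that rose in H3.3-KD was near that of all genes, and without *Ezr* and *Jam3*, which reached the filter only through H3.3-KD, 6 of 24 rose. *Crb3*, an apical polarity protein, was the gene called in both. It was at 129.8, 132.1 and 129.1 FPKM in control, 80.8, 51.3 and 41.9 FPKM in MFN1-KD and 320.0, 360.3 and 423.6 FPKM in H3.3-KD. The 3 groups did not overlap, and the log2 fold change was 1.48 for H3.3-KD (adjusted p = 0.00201) and -1.21 in MFN1-KD (adjusted p = 0.0388), and the latter call held in 5 of 16 alternatives. It was lost without any 1 library other than H3.3-KD replicate 3 and MFN1-KD replicate 1 (adjusted p = 0.0553 to 0.159), and with the GC and length trend removed the log2 fold change of *Crb3* in MFN1-KD was -0.72 (adjusted p = 0.12). The junctional adhesion molecule *F11r* rose by 1.85 and the small GTPase *Rac1* by 1.75 in H3.3-KD. The tight junction scaffold *Tjp1* had a log2 fold change of -1.01 (adjusted p = 0.0464), a call that held in 6 of 16 alternatives and was lost without any 1 library other than MFN1-KD replicate 3 (0.0526 to 0.143).

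**Figure D5:**
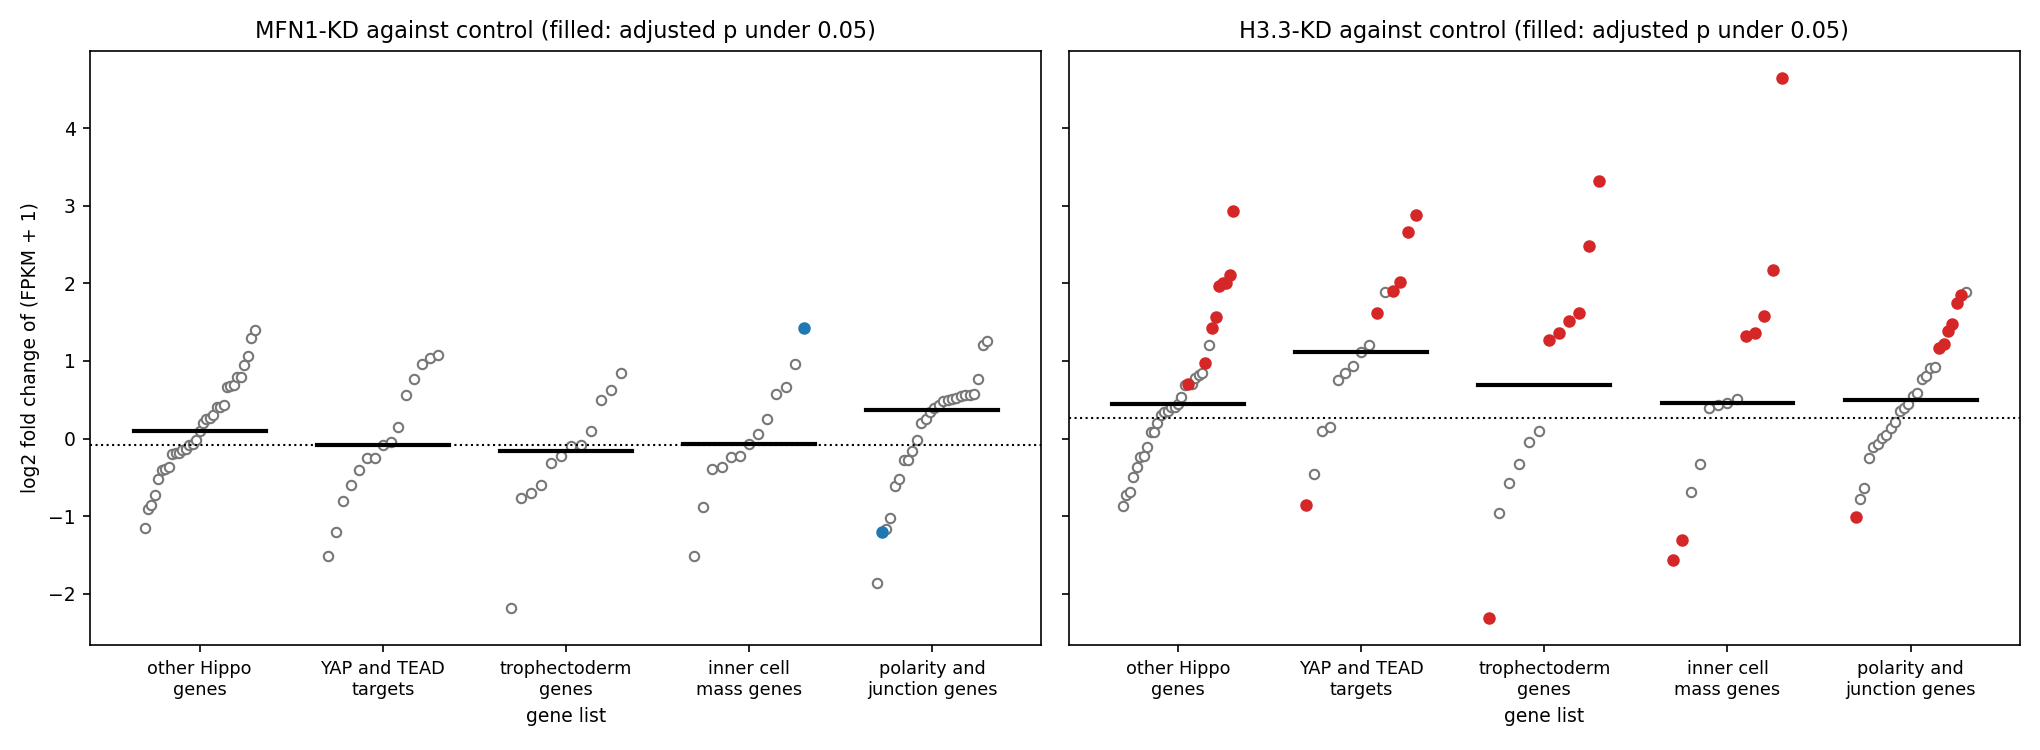
Log2 fold change of each gene tested in 5 lists, sorted within each list, in MFN1-KD and H3.3-KD against control; filled points have an adjusted p under 0.05, bars mark the list median and the dotted line the median of all genes tested. In H3.3-KD the bar of the YAP and TEAD targets stands highest at 1.11, and in MFN1-KD the filled points are *Sox21* and *Crb3*.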

How the data were processed

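Per the labels and the methods of the study, cDNA was primed with oligo-dT and amplified by Smart-Seq2, and the authors trimmed the paired reads with cutadapt 1.16 and mapped them with STAR to mm10. The deposited values are FPKM per gene symbol, rounded to 2 decimals; the program that made them, the annotation and the strand setting are not given in the sources used here. Low FPKM values were not whole multiples of a step, so counts could not be recovered, no count test was run and depth is unknown.

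Symbols were matched to GENCODE M21 (GRCm38), which gave positions, GC content and transcript length for 12770 of the 13011 genes averaging 1 FPKM or more. log2(FPKM + 1) of all 9 libraries was fitted with limma 3.58.1 (trend and robust) in R 4.3.3, with no covariate. The p-values were Benjamini-Hochberg adjusted over all genes tested. On simulated data, the script recovered 99 of 200 genes that had been given a fixed change in H3.3-KD. A gene that did not pass may therefore still have changed. For shares, a two-sided exact permutation test was used (scipy 1.17.1). The 16 alternatives were a pseudocount of 0.1, no filter, median-ratio and upper-quartile scaling, only the 6 libraries compared, a replicate block, a correction of every library for GC content and length by splines (5 degrees of freedom), and each of the 9 libraries left out. From each list the text names at most 3 called genes per direction, or the gene with the smallest p. *Amotl1* was added after its values were seen. The genes and lists were chosen with earlier results of these data known; alternatives for single list genes, and counts without genes that reached the filter through 1 group only, were added after seeing the data. Some lists share genes. *Ctgf* and *Cyr61* are listed as *Ccn2* and *Ccn1*.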

Additional observations from a re-analysis of the deposited data

Results flagged for a closer look

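Both knockdowns were set against each other directly, and 5 of the 10 Hippo genes differed between them in limma. The same comparison called 27.6% of all genes as higher and 11% as lower in the H3.3-KD libraries. *Amot* was lower in H3.3-KD than in MFN1-KD (log2 difference -2.75, adjusted p = 0.000569). *Yap1* (2.01, adjusted p = 0.000856), *Tead4* (1.41, adjusted p = 0.00109), *Nf2* (1.60, adjusted p = 0.00424) and *Amotl2* (1.30, adjusted p = 0.00926) were higher. With the GC and length trend removed, *Nf2* (0.75, adjusted p = 0.0762), *Amotl2* (0.17, adjusted p = 0.735) and *Tead4* (-0.026) missed the threshold. All 3 H3.3-KD libraries lay beyond all 3 MFN1-KD libraries for each of the 5 genes, which were picked by this same contrast. The share of all genes for which that holds was not counted, so it adds no support. The groups of 3 libraries are too small for a test of single outlying libraries.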

How the results depend on the processing

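Correcting every library for GC content and transcript length moved the most results. In H3.3-KD it left 2 of the 4 genes called higher at the adjusted p and 1 of 5 at the study threshold, and it turned *Wwtr1* to -0.029, *Tead2* to -1.01 and *Tead4* to -0.0028. Against MFN1-KD it left 1 gene higher and 2 lower at either threshold and moved *Tead4* to -0.026, and in MFN1-KD against control *Tead4* to 0.024. Relative to all genes, the list medians in H3.3-KD moved from 0.43 to -0.0073 (trophectoderm) and from 0.20 to -0.48 (inner cell mass). Median-ratio and upper-quartile scaling called 1 gene higher in MFN1-KD (*Amot*), left 3 at the study threshold in H3.3-KD and turned *Wwtr1* there to -0.15 and -0.24. Upper-quartile scaling also gave 2 genes higher and 2 lower at the study threshold in H3.3-KD against MFN1-KD. With no filter 0 genes were lower in H3.3-KD at the adjusted p.

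Leaving out each library in turn, the number of genes lower in H3.3-KD ranged from 0 to 1 at both thresholds. Log2 fold changes in MFN1-KD ranged from -0.17 to 0.72 for *Tead2* and from -0.27 to 0.0033 for *Tead4*. In H3.3-KD they ranged from -0.10 to 0.38 for *Wwtr1*, from -0.21 to 0.67 for *Tead2*, from -0.37 to 0.052 for *Lats1* and from -0.32 to 0.19 for *Lats2*. Against MFN1-KD they ranged from -0.36 to 0.22 for *Tead2* and from -0.47 to 0.041 for *Lats2*. In MFN1-KD the list medians relative to all genes ranged from -0.47 to 0.16 (targets) and from -0.18 to 0.36 (inner cell mass). The causes of these shifts were not tested.

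Replicate numbers were fitted as a block in 1 alternative. Same-numbered libraries had correlated deviations of -0.05 to 0.16, and differently numbered ones of -0.12 to 0.07. Of the 9 libraries, 2 correlated best with their own number in both other groups. With 3 libraries in each group, these values cannot decide whether same-numbered libraries were paired. With the block, H3.3-KD had 4 Hippo genes called higher and 1 called lower and MFN1-KD had 0, so no call of these genes changed. Of the list genes named, *Cdx2* (adjusted p = 0.0516) and *Tjp1* (0.074) in H3.3-KD and *Sox21* (0.0712) and *Crb3* (0.059) in MFN1-KD missed the threshold with the block, and no other named gene changed its call. Depth could not be judged from FPKM, so levels near 0 carry an unknown counting error.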
